A study of Brassica juncea with 9 samples.

Results

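The probes described here were selected because their mean signal in mustard leaves lay on the same side of control, at a similar distance, in plants given NaCl with and without added bicarbonate. RNA from leaves of Indian mustard, *Brassica juncea* genotype NDR 8501, was hybridised to 9 one-colour Cy3 oligonucleotide arrays, 1 array per plant and 3 plants per group, all aged 5 weeks at harvest per the labels. Control plants stayed in a slightly acidic nutrient solution. Salt plants received 50 mM NaCl, given in split doses, for 4 weeks, and alkaline salt plants received 50 mM NaCl in a solution buffered with 2.5 mM bicarbonate for the same time. All plants were grown in hydroponic culture, and each sample was a middle, fully expanded leaf of a single plant. The study used this genotype and this time point only, so the groups model no other line or stage.

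NaCl in the root medium lowers the water potential that roots must draw against, and sodium and chloride then build up in leaves over days to weeks. Bicarbonate raises and buffers the pH of the solution and makes iron and some other nutrients harder to take up. The design has NaCl in both treated groups and bicarbonate in only 1 of them. Changes that go with NaCl in either solution can be listed apart from those that appear only with bicarbonate. No group received bicarbonate without NaCl, so bicarbonate alone and its combination with NaCl cannot be told apart. *B. juncea* carries the A and B subgenomes, so a probe may read copies of a gene from both.

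Of 43603 probes on the array, 16532 were well above background on all 3 control arrays or on all 6 arrays of NaCl-treated plants and were eligible. A probe became a member if the means of salt and of alkaline salt plants, in the log2 values deposited by the authors, both differed from the control mean by at least 0.8 in the same direction, if the values of the 3 control plants and of the 6 NaCl plants did not overlap, and if the salt and alkaline salt means were less than 0.5 apart. This gave 82 probes of 79 transcript identifiers, with 28 probes higher and 54 lower in both NaCl groups, or 0.169% and 0.327% of the eligible probes. The members were chosen on these 9 arrays, so every difference from control below describes the choice and none is a test. The number of members changed when single plants were left out. With fewer plants the no-overlap and detection parts of the rule are easier to meet, so higher counts follow in part by construction. Without control replicate 3, 135 higher and 162 lower probes met the rule, without control replicate 1 it was 55 and 86, and without control replicate 2 the lower probes numbered 100. The higher probes numbered 66 without salt replicate 3 and 44 without alkaline salt replicate 1. Without any 1 plant, 20 to 26 of the higher and 35 to 46 of the lower members still met the rule. What each plant's own level contributes to these counts was not tested. With each array scaled to its median, 11 higher and 43 lower probes met the rule, and 10 of the 28 higher and 27 of the 54 lower members were among them.

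The files pair no probe with a gene name, a description or a sequence. Leaf markers could therefore not be looked up, the labelled tissue could not be checked, and no pathway list could be applied. The probes named below by their array identifiers are the 2 higher and 2 lower members with the largest shifts among those above background on all 9 arrays. Some others are named because they stood at the edge of a small count, and these were chosen after their values were seen. In whole leaves, fewer cells of a type and less RNA per cell cannot be told apart.

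The rule fixed that the members' differences from control were similar in both treatments, and their size above its limit varied. Among the 28 higher members, the median difference from control was 1.36 in salt and 1.31 in alkaline salt plants on the log2 scale, or 2.56-fold and 2.48-fold. Among the 54 lower members it was −1.30 and −1.17, or 2.46-fold and 2.25-fold lower. Over all eligible probes, with both directions pooled, the signed medians were −0.02 for salt and −0.04 for alkaline salt. Signs cancel in these values, so they do not give the size of a typical difference. With the sign dropped, the median size among eligible probes was 0.19 for salt and 0.39 for alkaline salt. Both NaCl groups were at least 2-fold from control for 22 higher and 32 lower members, at least 4-fold for 7 and 9, and at least 16-fold for 3 and 2. These counts take signals at background as measured. The members spread from 0.81 to 6.30 in salt on the higher side and from −7.40 to −0.81 on the lower side.

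The threshold cut through a continuous range. The lower member nearest to it had its smaller difference at −0.80 (A_46_P248049, −0.81 in salt and −0.80 in alkaline salt), and the nearest lower probe outside had −0.7996. On the higher side the values were 0.81 inside and 0.77 outside. In all, 16 of the 54 lower members but 3 of the 28 higher members had a smaller difference under 0.9 in size. The distance between the treatments ran up to 0.48 among members and started at 0.50 among the probes that failed on it alone. Those numbered 41 higher and 69 lower, and 39 and 60 of them lay further from control in alkaline salt than in salt plants. Among the members the side was more even, with 43 of 82 further from control in alkaline salt and 39 in salt plants. The rule kept members in a narrow band around equal treatment means, so this contrast follows at least in part from the rule.

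The higher member that led the ranking was A_46_P016466. Its log2 values were 12.32, 7.89 and 13.30 in control replicates 1 to 3, 16.52, 15.90 and 16.78 in the salt plants, and 16.05, 16.43 and 15.88 in the alkaline salt plants. All 6 NaCl plants lay in a narrow band well above the controls, with 2.58 between the nearest plants, while control replicate 2 lay far below the other controls. The means were 11.17 ± 2.88 (SD, n = 3) for control, 16.40 ± 0.45 for salt and 16.12 ± 0.28 for alkaline salt plants, a 37.5-fold and a 30.9-fold higher level. Without control replicate 2, the mean difference of the NaCl groups fell from 5.09 to 3.45.

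A_46_P246254 followed A_46_P016466 plant by plant, at 11.09, 5.52 and 12.17 in the control plants, 15.28, 15.06 and 15.66 in the salt plants and 15.02, 15.33 and 14.92 in the alkaline salt plants. It too was low in control replicate 2, where it was not above background. After the group means were taken off, the values of these probes correlated at r = 0.996 over the 9 plants, and the probes carry different transcript identifiers. A_46_P143784 showed the same order of the controls, at 10.22, 8.65 and 11.26, and correlated with A_46_P016466 at 0.971. The lower member A_46_P148494 was also lowest in control replicate 2 among the controls, and correlated with A_46_P246254 at 0.926. How far control replicate 2 alone set these correlations was not tested. They share the same 9 plants and arrays and are given as a description.

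The other rule-named higher member, A_46_P106264, had values of 11.53, 10.96 and 11.81 in the controls, 12.66, 13.55 and 15.04 in the salt plants, and 13.31, 13.73 and 13.57 in the alkaline salt plants. The groups did not overlap, and salt replicate 3 stood above the other 5 NaCl plants. Its level was 4.99-fold higher in salt and 4.31-fold higher in alkaline salt than in control plants. A_46_P270668 moved with it (r = 0.988 over the 9 plants after removing group means), at 10.21, 9.68 and 10.38 in the controls, 11.41, 12.12 and 13.56 in salt and 12.05, 12.10 and 12.16 in alkaline salt plants. Close pairs were about as frequent as elsewhere on the array: 0.662% of the 3321 member pairs had r over 0.9, against 0.567% of all pairs of eligible probes.

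The member with the largest difference on the higher side, A_46_P087991, was above background in control replicate 3 only. Its values were 5.34, 5.28 and 9.98 in the controls, 12.20, 12.59 and 14.70 in the salt plants and 13.45, 14.53 and 12.64 in the alkaline salt plants. The nearest plants of both sides, control replicate 3 and salt replicate 1, were 2.22 apart. The mean difference of 6.48 from control rests on control signals at background in the other 2 control plants, so its size is uncertain.

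On the lower side, the rule named A_46_P239229 and A_46_P167889. A_46_P239229 was at 13.06, 12.57 and 12.62 in the controls, 9.74, 9.96 and 11.02 in the salt plants and 11.01, 9.55 and 8.88 in the alkaline salt plants. The controls were close together, and the NaCl plants were spread over 2.14 with the nearest of them 1.56 below the controls. Its level was 5.70-fold lower in salt and 7.67-fold lower in alkaline salt plants.

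A_46_P167889 was at 13.29, 11.97 and 13.86 in the controls, 10.98, 10.89 and 10.19 in salt and 10.47, 10.32 and 11.03 in alkaline salt plants. Here the controls were spread and the NaCl plants were close together. The level was 5.10-fold and 5.39-fold lower, with group means of 13.04 ± 0.97 (SD, n = 3) for control, 10.69 ± 0.44 for salt and 10.61 ± 0.37 for alkaline salt plants. The mean difference was −2.39 with all plants and −1.98 without control replicate 3.

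Among the lower members, 3 probes were above background in all 3 controls and in none of the 6 NaCl plants. This describes the probes and not a loss of the transcript. Another probe of the transcript of A_46_P231729, A_46_P144744, was above background on all 9 arrays. A_46_P231729 was at 12.11, 13.88 and 12.23 in the controls and between 5.32 and 6.10 in the NaCl plants. Measured against the lowest signal that passed as above background on each array, it was at least 41.3-fold lower in salt and at least 38.8-fold lower in alkaline salt plants. A_46_P239649 was at 10.02, 12.01 and 10.07 in the controls and between 5.34 and 5.46 in the NaCl plants, or at least 10.03-fold and at least 9.43-fold lower. A_46_P356030 was at 8.94, 9.67 and 9.11 in the controls and between 5.29 and 6.41 in the NaCl plants, or at least 3.64-fold and at least 3.33-fold lower. Control replicate 2 was the highest control for all 3 probes. The control arrays are shared by both contrasts.

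With A_46_P207704, which was above background in a single salt plant, these were the only 4 members in which the distance between the nearest plants was wider than the spread of the controls and also than the spread of the NaCl plants. A_46_P207704 was at 8.69, 8.83 and 8.57 in the controls, 5.27, 6.15 and 5.42 in salt and 5.33, 5.45 and 5.86 in alkaline salt plants. Its controls agreed within 0.25, and it was at least 2.35-fold lower in alkaline salt. All 4 members were at or near background in the NaCl plants, which limits how far the values of those plants could spread.

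The separation of the plants was narrow for most members. The distance from the control plant nearest to the NaCl plants to the NaCl plant nearest to the controls had a median of 0.46 among higher and 0.29 among lower members. It was at least 0.5 for 26 of the 82 and at least 1 for 10, and under 0.1 for 17. Among the eligible probes, controls and NaCl plants did not overlap for 2.01% on the higher and 2.92% on the lower side, so membership by this part of the rule alone was not rare. For 17 of the 28 higher members the nearest control was replicate 3. Among all eligible probes this plant was the highest control for 37.0%. On the lower side the nearest control was replicate 1 for 16 members and replicates 2 and 3 for 19 each, while among eligible probes replicates 1 to 3 were the lowest control for 24.4%, 39.3% and 36.3%. The nearest NaCl plant was salt replicate 1 for 20 of the 82 members, and salt replicate 2 and alkaline salt replicate 1 for 16 each. The matching shares over eligible probes were not computed, so these counts set no NaCl plant apart.

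Several large differences came with a control plant far from the other controls. The controls spread over more than 2 log2 units for 6 higher and 4 lower members, or 10 of 82, against 4.25% of the eligible probes. An extreme case was A_46_P042831, at 10.48 and 10.53 in control replicates 1 and 2 but 5.32, not above background, in control replicate 3. Its 6 NaCl plants were between 10.99 and 11.24, so the mean difference of 2.35 was 0.62 without control replicate 3. Over all 82 members, spread within a group was larger than among eligible probes. The median SD was 0.37 against 0.30 for control, 0.43 against 0.25 for salt and 0.40 against 0.25 for alkaline salt plants.

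By contrast, the members with the most even controls included A_46_P292578, at 14.66, 14.73 and 14.64 in the controls, 13.91, 13.82 and 13.14 in the salt plants, and 13.95, 13.75 and 13.71 in alkaline salt plants. All 6 NaCl plants lay at least 0.69 below the lowest control. Its level was 2.08-fold lower in salt and 1.83-fold lower in alkaline salt plants.

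Detection differed from that of the eligible probes. Of the members, 50 of 82, or 61.0%, were above background on all 9 arrays (18 higher and 32 lower), against 87.6% of the eligible probes. The rule itself required all 6 NaCl plants or all 3 control plants to be above background. All 28 higher members were above background in the 6 NaCl plants, and all 54 lower members in the 3 controls. No higher member was undetected in all 3 controls, so none was an outright gain. Among the lower members, 4 were above background in no salt plant and 4 in no alkaline salt plant.

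Leaving out each plant in turn changed the list. A total of 19 members (10 higher and 9 lower) met the rule in all 9 lists made without 1 plant. The others failed in at least 1 list, most often without salt replicate 3 (24 members) or salt replicate 2 (23). The 19 included A_46_P246254, A_46_P167889, A_46_P292578 and the lower members A_46_P231729, A_46_P239649, A_46_P356030 and A_46_P207704. The last 4 of these were at or near background in both treatments. Their treatment means therefore lay close together whichever plant was omitted, so their passing was largely fixed in advance. A_46_P016466 failed only without salt replicate 2, A_46_P106264 only without salt replicate 1, and A_46_P239229 without salt replicates 1 or 2 or alkaline salt replicate 1. In each of these the means of the treatments then came to lie 0.5 or more apart.

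Each slide held 1 array of every group, and the slide number equals the replicate number. Within slides 1 to 3, the median difference of the higher members was 1.22, 1.58 and 1.43 between salt and control and 1.38, 1.59 and 1.196 between alkaline salt and control. For the lower members it was −1.21, −1.16 and −1.36 in salt and −1.17, −1.37 and −1.31 in alkaline salt. Since the rule allowed no overlap of control and NaCl plants, each member's sign within a slide was fixed by the choice. Single members varied in size: within slide 3, the salt differences of the lower members ran from −6.89 to −0.05.

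Some transcript identifiers had several probes, read in the same plants. Without sequences, the positions of these probes, and whether they read the same RNA, are not known. Another probe existed for 16 members of 13 transcripts, while 66 members had none. In 3 transcripts both probes were members, all lower. A_46_P257589 and A_46_P158929 had differences of −1.75 and −1.62 in salt and −1.45 and −1.41 in alkaline salt. A_46_P137029 and A_46_P012171 had −1.07 and −0.93 in salt and −1.35 and −1.14 in alkaline salt. A_46_P367660 and A_46_P227449 had −0.96 and −0.85 in salt and −0.97 for both in alkaline salt. The members of a pair showed much the same size, which follows in part from the rule that both probes met. The 54 lower members are not independent.

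Of the other 15 probes of these transcripts, 8 were eligible, and all 8 lay on the member's side of control in both treatments. Several of the 8 share the transcript of A_46_P224004, and for most of the 8 control and NaCl plants overlapped. The matching share over all eligible probes was not computed. Among the probes that were not eligible, only A_46_P027966 went the other way, at 0.48 in salt against −1.31 for the member A_46_P319535. It was above background on 1 array. For A_46_P231729, the eligible partner A_46_P144744 was above background on all 9 arrays, at 16.71, 17.64 and 16.63 in the controls, 10.77, 11.59 and 10.07 in salt, and 10.81, 10.81 and 13.46 in alkaline salt plants. It missed membership because its treatment means were 0.88 apart, with alkaline salt replicate 3 above the other NaCl plants. Its differences of −6.18 and −5.30 may be read beside −7.40 and −7.11 for the member, which was at background in the NaCl plants. Another probe of that transcript, A_46_P002236, was above background on 3 arrays and differed by −0.20 and −0.16 only. Not every partner was close in size: A_46_P017826, on the transcript of A_46_P292578, differed by −0.21 and −0.22, against −1.05 and −0.87 for the member.

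In a fit across all 17798 probes above background in at least 1 group (limma, Benjamini-Hochberg adjusted p under 0.05), calls among the members depended on the contrast. The contrast of both NaCl groups together against control called 12 of 28 higher and 17 of 54 lower members, against 1.96% and 1.44% of all tested probes called in those directions and 3.4% in either. Alkaline salt against control called 18 higher and 29 lower members (background 8.01% and 9.86%, or 17.9% in either direction), and salt against control called 0 higher and 2 lower members (background 0.0112% and 0.0225%, or 0.0337% in either direction). The 2 were A_46_P231729 and A_46_P239649. At an unadjusted limma p under 0.05, 25 higher and 47 lower members passed for salt, where 2.29% and 3.6% of all tested probes passed in those directions. The rule used these contrasts on these arrays, so the counts are given as a description. Apart from these 2 probes, no member was called for salt alone in this fit, so describing the members as shifted by NaCl rests on the rule. With median scaling 11 members were called for salt, and with the deposited value table, on which the rule was applied, 5 were called. For these other fits the share of all tested probes called was not computed. Their counts therefore say nothing about the members in particular.

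These counts also changed when single plants were left out, which leaves fewer plants for the fit. The shares of all tested probes called in these fits, and with the replicate block, were not computed either. For both NaCl groups together the 29 called members became 4 without control replicate 1, 12 without control replicate 2, 12, 11 and 15 without salt replicates 1, 2 and 3, and 16 and 8 without alkaline salt replicates 2 and 3. For alkaline salt the 47 became 19 and 27 without control replicates 1 and 2, and 24 and 18 without alkaline salt replicates 2 and 3. For salt the 2 became 5 and 4 without control replicate 2 or salt replicate 2, and 1 without control replicate 1, salt replicates 1 or 3, or any alkaline salt plant. With the replicate number as a block, 17 members were called for both NaCl groups together and 0 for salt.

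Between alkaline salt and salt plants, 0 of the 82 members were called by limma, and 0 had an unadjusted p under 0.05 (1 was called without salt replicate 2). Of all tested probes 7.98% were called higher and 7.24% lower, or 15.2% in all, and 15.0% and 15.7% had an unadjusted p under 0.05. The rule kept this difference under 0.5, so the count shows nothing about bicarbonate. Nor did the data establish equal levels. The 95% confidence interval of the difference reached a median of 0.89 to either side among members, against 0.61 among all tested probes. It lay within ±0.5 for 1 member and within ±1 for 27 members, and for 11 members it reached past ±2.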

How the data were processed

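Total RNA was labelled with Cy3 and hybridised to 1-colour arrays of 45220 spots, with 1417 control spots set aside. The scanner output deposited by the authors gives linear processed intensity for each spot, made by Agilent Feature Extraction 10.1.1.1 per the file headers. Version 10.5.1.1 is named in the submitters' processing notes. The authors' deposited value table holds log2 values of unstated making. Its columns matched quantile-normalised log2 processed intensities with a largest difference of 0.0891, so scale, direction and normalisation are inferred, and probes were not centred. Its column medians were 6.27, 6.27 and 6.27 in the controls, 6.26, 6.27 and 6.27 in salt and 6.27, 6.27 and 6.27 in alkaline salt plants.

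The membership rule was applied to this table and to the scanner's well-above-background flags (at least 0.5 of a probe's spots). For the fit, log2 processed intensity minus the array's 75th percentile was used, with 71 outlier spot values set to missing and no gene spot saturated. Group means were fitted on all 9 arrays with limma 3.58.1 in R 4.3.3, tested on simulated data. Between 38.5% and 50.6% of probes were well above background on an array, and the number of arrays limits the precision. Replicates are single plants numbered in the titles. The scan date in the headers of all 9 files is earlier than the growing period given in the labels; the cause of this mismatch is unknown, and the groups rest on the labels.

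The members, the naming rule and the lists were chosen with earlier results of these data known. The rule ranked members above background on all 9 arrays by the smaller of their 2 differences and named the first 2 in each direction. Lists of leaf markers and stress genes could not be applied. For "at least" folds, each array of a group below background was given the lowest detected signal of that array, or the probe's own value if higher, and these were averaged. Alternatives are listed in the closing section; the planned normexp correction used median spot signals, as the files hold no mean spot signal.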

Additional observations from a re-analysis of the deposited data

How the results depend on the processing

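Scaling to the 75th percentile gave 25 higher and 53 lower probes by the rule, of which 25 and 44 were members. The members that still met it were 10 and 27 with median scaling, 14 and 20 with normexp and 25 and 46 with a common floor. All 82 members kept their direction under 75th percentile scaling, median scaling, normexp with quantile normalisation and a common floor. Against 28 higher and 54 lower, the rule gave 11 higher with median scaling, 17 and 27 with normexp, 18 and 32 with probes above background on all 9 arrays, 43 and 96 with no filter on dim probes, 32 lower at a minimum difference of 1.0, 48 and 86 at 0.6, 35 lower with treatments within 0.3, and 96 and 111 with overlap allowed. With 1 array omitted, 29 to 135 probes were higher and 56 to 162 lower. Of the members, 2 were called for salt, and 11 with median scaling, 5 with the deposited value table, 1 with normexp, 0 with probes above background on all 9 arrays, 1 with no filter, 1 with only the groups compared and 4 at an adjusted p under 0.1. For alkaline salt 47 became 24 with median scaling and 12 with no filter, and for both NaCl groups together 29 became 4 with no filter and 54 at an adjusted p under 0.1. Without single arrays these ranged from 1 to 5, 18 to 48 and 4 to 27, and for alkaline salt against salt from 0 to 1. Fewer plants, other thresholds and other tested sets change counts by construction. For the scalings and background correction the cause was not tested. Shares of all tested probes called were computed for the main fit only, so the other counts of called members have no background beside them.

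The replicate block gave 0 called members for salt, 40 for alkaline salt and 17 for both NaCl groups together, and changed no other count by over 1.5 times. Same-numbered arrays deviated together in 1 of 9 pairs (r over 0.1; range −0.145 to 0.290), and for 3 of 9 arrays the closest match had the same number, so the numbers were not treated as pairs. Under 13 alternatives each, the mean differences of the 4 probes named by rule stayed within 1 SD of the plants. They ran between 3.45 and 6.16 for A_46_P016466 and between −3.02 and −2.08 for A_46_P239229. Most of these alternatives omit 1 plant. That can move a group mean by at most about 1 SD, so the outcome was largely fixed in advance. For A_46_P016466, control replicate 2 lay far from the other controls and itself widened the SD. Signal near background limits the 32 members not detected on every array.
For both NaCl groups together, a fit on only the groups compared needs all 9 arrays and gave no separate value.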
